A study of Mus musculus with 9 samples.

Results

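Malat1, Neat1, Kcnq1ot1, Snhg11, Miat and Rmst are 6 long non-coding RNAs, transcripts that are not translated and that mostly stay in the nucleus. They were read here as 6 of the 32285 mouse genes in single-cell RNA counts from brain. The members were picked by symbol, with their share of the molecules per mouse, per cell type and in the smallest barcodes already known, so levels by barcode size and by cell type are given below as a description. Tumor and control were compared by a test, but on the same values per mouse that were known when the members were picked, so its p-values describe the spread between mice and are no independent support for the choice of members. The control group was 4 NestinCreERT2;TdT mice, whose brains carry the tamoxifen-dependent Cre of the Nestin promoter and a tdTomato reporter. The tumor group was 5 EPZFTA-RELA mice (NestinCreERT2;Fus1), in which the same Cre opens a conditional ZFTA-RELA fusion allele in embryonic radial glia and supratentorial ependymoma follows. All 9 mice were 6 to 8 weeks old. The tumor, or the same region of a control brain, was cut out under the reporter's fluorescence. Cells left by sorting on a DNA dye and an anti-Ter119 antibody, which marks red cells, were run on the 10x 5′ platform, and each mouse was 1 library and 1 replicate.

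Depth differed between the groups. The control libraries held 101060608 to 178086164 unique molecular identifiers (UMIs, 1 for each captured RNA molecule) over 75222 to 86516 barcodes, and the tumor libraries 14967680 to 69411387 over 9001 to 26341. Filtering of the 10000 deepest barcodes of a library left 4015 to 6261 cells per control mouse and 1587 to 5101 per tumor mouse. Neuron markers took 0.461% to 0.539% of UMIs in the kept control cells, and 0.0284% to 0.184% in the kept tumor cells. Tumor 4 stood apart, with 3 cells that met the neuron gate and the value of 0.0284%. Between 19 and 45 barcodes were shared by any pair of libraries, or 0.211% to 0.45% of the smaller one, over the 8 libraries whose barcode list was complete.

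These RNAs act where they are made. Malat1 gathers in nuclear speckles, the stores of splicing factors, and Neat1 is the scaffold on which paraspeckles assemble. Kcnq1ot1 is transcribed from the paternal chromosome across the Kcnq1 imprinted domain and silences genes in it. Snhg11 is the host transcript of small nucleolar RNAs and is known from neurons. Miat, also called Gomafu, sits in its own nuclear bodies in neurons and binds splicing factors through repeats of a branch-point-like motif. Rmst is a neural RNA that binds Sox2 and takes part in neurogenesis.

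In GRCm38 (mm10, GENCODE M21) Malat1 and Neat1 lie side by side on the minus strand, at chr19:5795690-5802672 and chr19:5824708-5845478, with 22035 bases between them, and the longest transcript of each is a single exon, of 6983 and 20771 bases. Kcnq1ot1 (chr7:143203458-143296549, minus strand) is a single exon of 93092 bases that lies inside the protein-coding gene Kcnq1 on the other strand. Snhg11 (chr2:158375638-158386145, plus strand) holds 2 annotated snoRNA genes, and GENCODE lists it as protein-coding. Miat (chr5:112213228-112229395, minus strand) has a longest transcript of 9163 bases in 7 exons and overlaps Gm26953 on the other strand. Rmst (chr10:92071037-92165170, minus strand) has 14 transcripts and holds the microRNA genes Mir135a-2 and Mir1251. Whether the counting used strand or introns is not given in the sources used here, so reads of an overlapping gene could be split between partners. Kcnq1 itself had only 2 to 10 UMIs in all kept cells of a control mouse and 12 to 75 in a tumor mouse, and Gm26953 had 90 to 123 and 4 to 10.

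The sequence features behind the nuclear roles of Malat1 and Miat are printed because no other measurement here shows them. In Malat1-201, capitals mark a U-rich motif (TTTTTCTTTT in DNA letters) and a run of 12 A near the 3′ end. They belong to the stretch, together with another U-rich part left in lower case, that folds into the triple helix known to protect this RNA from decay (chr19:5795978-5796077, minus strand, 5′ to 3′).
Malat1: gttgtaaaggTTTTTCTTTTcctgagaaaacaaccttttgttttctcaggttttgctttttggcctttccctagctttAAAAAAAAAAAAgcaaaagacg
In Miat-205, capitals mark the ACTAAC repeats in the transcript direction, in a pair of windows (chr5:112217309-112217459 and chr5:112216752-112216877, both minus strand).
Miat first window: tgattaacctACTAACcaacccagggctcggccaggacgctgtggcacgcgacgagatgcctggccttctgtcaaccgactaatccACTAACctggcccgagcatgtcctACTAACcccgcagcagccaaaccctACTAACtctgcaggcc
Miat second window: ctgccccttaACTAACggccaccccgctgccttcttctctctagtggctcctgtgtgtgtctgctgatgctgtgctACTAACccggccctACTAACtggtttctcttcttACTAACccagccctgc

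Miat-205 held 11 copies of ACTAAC, or 1.2 per 1000 bases, and 2 of 260 long non-coding transcripts of at least 5000 bases (0.769%) were at least as dense, against a median of 0.136 per 1000. Neat1 held 4 copies, Kcnq1ot1 20 in its much longer transcript (0.215 per 1000), and the longest transcripts of Malat1 and Rmst held 0. The U-rich motif together with a run of 12 A in the last 500 bases was found in 2 of the 260 transcripts (0.769%), and the run of A alone in 13 (5%). Only the transcript strand was searched. These matches describe letters and say nothing of binding in these cells.

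Malat1 was much richer in the largest barcodes of control brains than in the rest. When the 4 control libraries were ordered by UMIs per barcode and divided into 20 equal bins, Malat1 took 8.53%, 8.47%, 8.86% and 8.72% of UMIs in the largest barcodes of controls 1 to 4. In the fifth bin it had come down to 1.21%, 1.08%, 1.19% and 1.21%, and in the tenth to 0.904%, 0.816%, 1.03% and 1.05%. In the last bin it stood at 0.849%, 1.09%, 1.18% and 1.03%, above the tenth bin in controls 2 and 3. The 3000 smallest barcodes of each control library, taken as an estimate of RNA floating free in the suspension, held 0.870%, 1.15%, 1.22% and 1.05% Malat1. Their median size was 691, 1068, 1077 and 1338 UMIs, and whether they were empty of cells was not tested. Tumor libraries did not have the steep start of the control libraries. Malat1 took 3.96%, 1.53%, 2.14%, 1.34% and 1.34% of UMIs in the largest barcodes of tumors 1 to 5, and in tumors 2 to 5 the highest share stood in a later bin. The smallest tumor barcodes held 0.852%, 0.899%, 1.07%, 1.16% and 0.838%, of which those of tumors 1 and 5 lay just below the lowest control value.

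**Figure D1:**
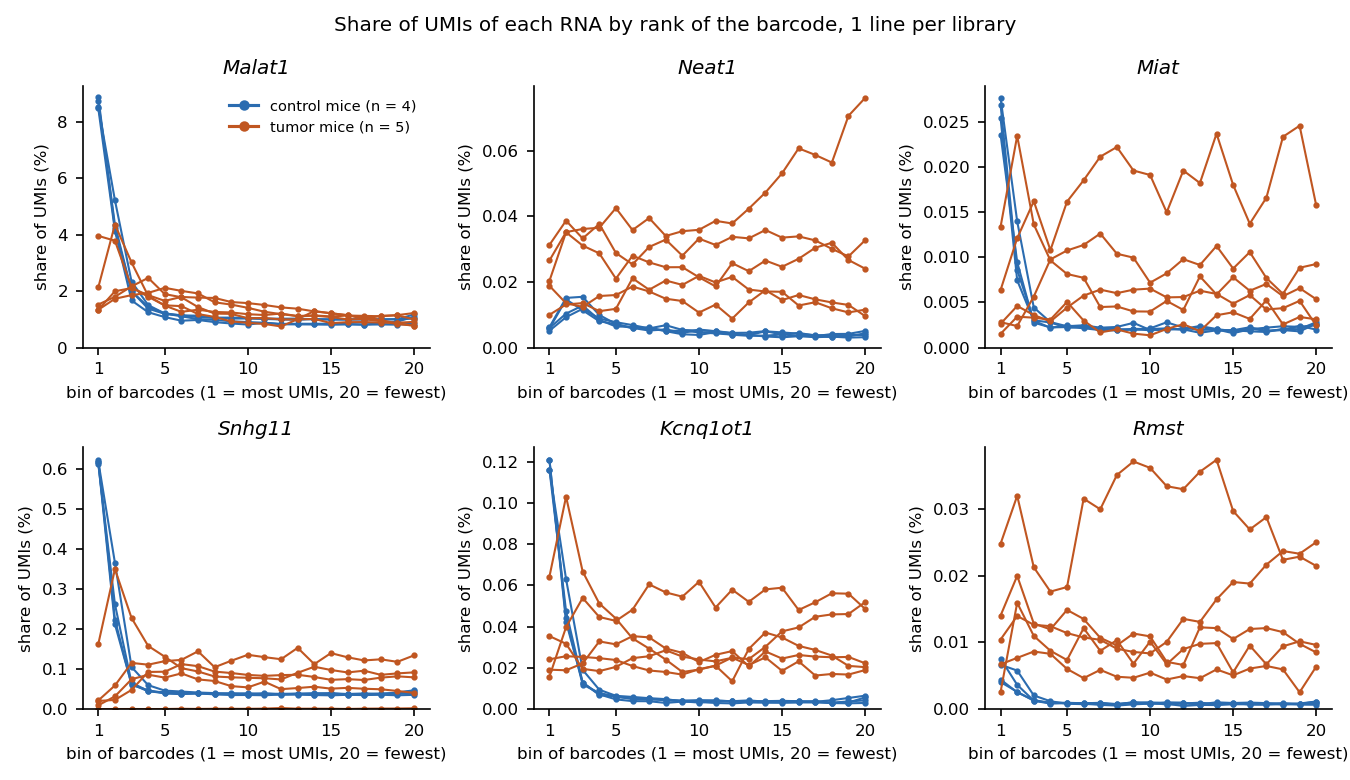
Share of UMIs from each RNA (y axis) in barcodes ordered from most to fewest UMIs in 20 equal bins (x axis), with 1 line per mouse. In the 4 control libraries Malat1 went from 8.47% to 8.86% in the first bin to at most 1.18% in the last, while no tumor library passed 4.36% in any bin.

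Over the cells that met a neuron gate (at least 4 of 8 neuron markers, at least 0.2% of UMIs from them, and no other class), Malat1 took 9.01%, 8.80%, 10.5% and 9.65% of UMIs in controls 1 to 4, a mean of 9.49% ± 0.758 (SD, n = 4). The ratio of that level to the level in the smallest barcodes of the same library was 10.4, 7.65, 8.58 and 9.23. These are the values by which Malat1 was chosen and support nothing further. Of the smallest control barcodes, 39.6%, 63.1%, 63.4% and 77.7% also met the neuron gate. Neuron markers took a smaller share of UMIs in the neuron-gated control cells (0.566%, 0.509%, 0.483% and 0.525%) than in the smallest barcodes of the same libraries (0.716%, 0.647%, 0.647% and 0.683%). Of the smallest control barcodes 0.7% to 1.23% met the gate of another class, and of the smallest tumor barcodes 0% to 4.9% met the neuron gate and 3.43%, 7.37%, 22.3%, 7.73% and 3.83% (tumors 1 to 5) the gate of another class. The free-RNA profile of a tumor, most of all of tumor 3, thus includes barcodes with the markers of a class. The control barcodes that the mitochondrial filter removed met the neuron gate in 84.8% to 92.0%, yet only 1.95% to 2.30% of their UMIs were Malat1. The filter used the mitochondrial share together with the number of genes. The Malat1 share of single neuron-gated control cells ran against the mitochondrial share (Spearman's rho -0.54 to -0.65 over 3539 to 5291 cells of 1 library each). The Malat1 share and the filter are thus not independent. Without the filter the mean Malat1 share of UMIs in neuron-gated control cells was 6.68%.

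Single cells overlapped with the smallest barcodes at the low end. The median control neuron-gated cell had a Malat1 share of 8.13%, 8.17%, 9.66% and 8.85% in mice 1 to 4, against 0.742%, 0.738%, 0.962% and 0.945% in the median small barcode. The 5th percentile of neuron-gated cells was 2.09%, 0.689%, 1.05% and 1.26%. In control 1 only 2.4% of the smallest barcodes lay above that percentile, whereas in control 2 it was 56.6%, in control 3 39.3% and in control 4 16.4%. The low tail of neuron-gated cells in controls 2 and 3 thus reached down to the level of the smallest barcodes.

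The other members were also richer in control neuron-gated cells than in the smallest barcodes, Neat1 by the least. Kcnq1ot1 had the highest ratio of the 6, with a geometric mean of 26.1 over the 4 mice (18.5 to 40.1). Snhg11 stood at 16.3 (13.9 to 19.3), Miat at 11.3 (10.2 to 14.5), Malat1 at 8.9 (7.65 to 10.4) and Rmst at 6.74 (4.26 to 10.1). Neat1 reached only 1.50 (1.20 to 2.13). Among the 3951 genes with at least 50 CPM (UMIs of a gene per 1000000 UMIs) in control neurons, Kcnq1ot1 was the 10th by this ratio, Snhg11 the 26th, Miat the 45th, Malat1 the 71st and Rmst the 128th, while Neat1 was the 1465th. Within each of the 4 libraries the ratio of Kcnq1ot1 was above that of Snhg11, Snhg11 above Miat and Miat above Malat1, although the ranges of neighbours overlapped between libraries.

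Genes entered this ranking by their level in neuron-gated cells, which is the numerator of the ratio, so low genes are present mainly where they are high in those cells. With that limit, the 82 genes annotated as long non-coding at this level, which leave out Snhg11, had a median ratio of 7.52, and 62.2% of them stood above 4. The 3855 protein-coding genes had a median of 1.10, with 7.29% above 4. The 13 mitochondrial genes had a median of 0.567, which the mitochondrial filter helped to set. The same filter removed neuron-gated barcodes low in Malat1, as given above, and so raised the Malat1 ratio. All ratios were taken after it, and its part in those of the other genes was not tested. The protein partners of these RNAs lay lower than the RNAs. Among paraspeckle proteins Sfpq had a ratio of 3.97 and Nono of 1.11, and among speckle proteins Son had 3.02 and Srrm2 6.19. Clk1 and Clk4, kinases of splicing factors, had 7.90 and 7.28. Meg3, another imprinted long non-coding RNA of neurons, had 15.9, and Gas5, a snoRNA host whose spliced transcript is cytoplasmic, 0.683.

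**Figure D2:**
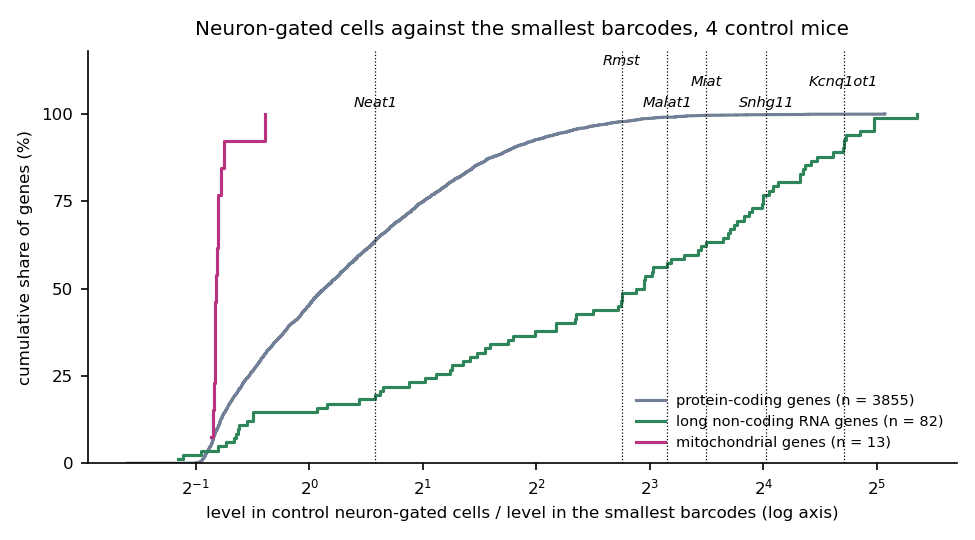
Cumulative share of genes (y axis, %) by the ratio of the level in control neuron-gated cells to that in the smallest barcodes (x axis, log scale, geometric mean of 4 mice), for protein-coding, long non-coding and mitochondrial genes, with the 6 RNAs as dotted lines. Genes were kept by their level in neuron-gated cells, the numerator. That choice and the mitochondrial filter can both move the curves (medians 7.52 for long non-coding and 1.10 for protein-coding genes). Neat1 alone of the 6 stands near 1.

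In tumor libraries the ratios of all kept cells to the smallest barcodes were lower for every member but Neat1. The Neat1 ratios overlapped, at 0.485 to 1.38 in tumors and 1.27 to 2.425 in controls. For Malat1 they were 4.68, 2.05, 3.44, 1.50 and 2.14 in tumors 1 to 5, all under the lowest control value of 7.26. Kcnq1ot1 had 3.80, 0.890, 0.713, 0.544 and 1.90, against 17.2 to 37.9 in controls. Snhg11 had 2.94, 0.433, 0.536, 0.0801 and 0.870, against 12.8 to 18.0. In 4 of 5 tumors Snhg11 was thus richer in the smallest barcodes than in the kept cells, and in tumor 4 the value rests on 49 and 28 UMIs. The neuron-gated cells of tumors 1, 2, 3 and 5 had Malat1 ratios of 8.26, 6.55, 4.50 and 8.62, of which those of tumors 1 and 5 lay within the control range for neurons and those of tumors 2 and 3 below it.

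Within control brains neurons led among the gated classes for Malat1, Snhg11, Kcnq1ot1 and Miat, oligodendrocytes for Neat1, and neurons and astrocytes were level for Rmst. All values that follow are CPM of the summed cells of 1 class and 1 mouse, and a class was read where a mouse had at least 20 cells. Malat1 was highest in striatal neurons (mean 105178 ± 10254, SD, n = 4) and in all neuron-gated cells (94873 ± 7582), followed by oligodendrocytes (77383 ± 6827) and astrocytes (76360 ± 3298). Oligodendrocyte precursors of 3 mice varied more (67806 ± 17913). Endothelial cells (43132 ± 4891) and microglia (36034 ± 2516) had less, and red cells, which lack a nucleus, had 17818 ± 4495. The median red cell had a Malat1 share of only 0.526%, 0.399%, 0.474% and 0.571% in controls 1 to 4. That was below the median small barcode of each library, and a part of the red-cell barcodes with much higher shares raised the sums. Oligodendrocytes and astrocytes did not differ beyond their spread, whereas every neuron value (87982 to 104864) was above every oligodendrocyte value (69485 to 86150). These values include free RNA. With the profile of the smallest barcodes subtracted, an alternative described with the microglia, Malat1 came to 12.9% to 17.7% of UMIs in control oligodendrocytes and in control astrocytes, while neurons, at 8.80% to 10.5% as counted, were not subtracted, so the order with all classes treated alike was not tested. Microglia and endothelial cells were close, with the highest microglia value (38855) just under the lowest endothelial one (38865).

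Neat1 was the exception that peaked in glia. It stood at 469, 476, 676 and 817 CPM in the oligodendrocytes of controls 1 to 4, above every other control class. Astrocytes had 106 to 162, endothelial cells 84.7 to 156, microglia 71.9 to 89.6 and neurons 57.9 to 70.6. The neuron and microglia ranges did not overlap, though by a gap of only 70.6 to 71.9. In the smallest control barcodes Neat1 was at 30.9 to 58.7 CPM.

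Kcnq1ot1, the imprinted antisense RNA, was at 1218, 1248, 1459 and 1290 CPM in control neurons. Oligodendrocyte precursors of 3 mice overlapped with that range (874 to 1352). The other classes were lower, with 309 to 648 in oligodendrocytes, 227 to 404 in microglia, 231 to 432 in astrocytes and 235 to 360 in endothelial cells, ranges that overlap each other. Snhg11, the snoRNA host, had the same order at its top, with 6703, 6579, 7639 and 7008 in control neurons. Microglia, endothelial cells, oligodendrocytes and astrocytes of controls had 249 to 1508 and were not separated. The smallest barcodes had 363 to 481, within that range.

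Miat separated kinds of neurons. It was at 289, 278, 307 and 263 CPM in the neuron-gated cells of controls 1 to 4, but only 37.0, 27.9, 41.1 and 21.7 in the subset with striatal markers such as Drd1 and Adora2a. Neurons that met no subtype gate, the large majority, had 278 to 327, and the 21 GABAergic neurons of controls 1 and 2 had 96.0 and 135. Striatal neurons held Miat near the level of the smallest barcodes (20.0 to 30.2), below each of these groups in every mouse. Rmst split the same cells, at 10.6, 5.58, 2.22 and 4.34 in striatal neurons and 49.2 to 84.6 in neurons of no subtype. The GABAergic neurons had 48.0 in control 1 and 0 in control 2, on 2 and 0 UMIs. Its other control site was astrocytes (25.6 to 105), which overlapped with neurons (46.5 to 79.7). Snhg11 (4604 to 5234 against 6680 to 7809) differed less between these neuron groups. Malat1 was higher in striatal neurons (97102 to 119215) than in neurons of no subtype (86991 to 103937) within each of the 4 mice, with overlap between mice, and was at 70962 and 69664 in the GABAergic neurons.

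**Figure D3:**
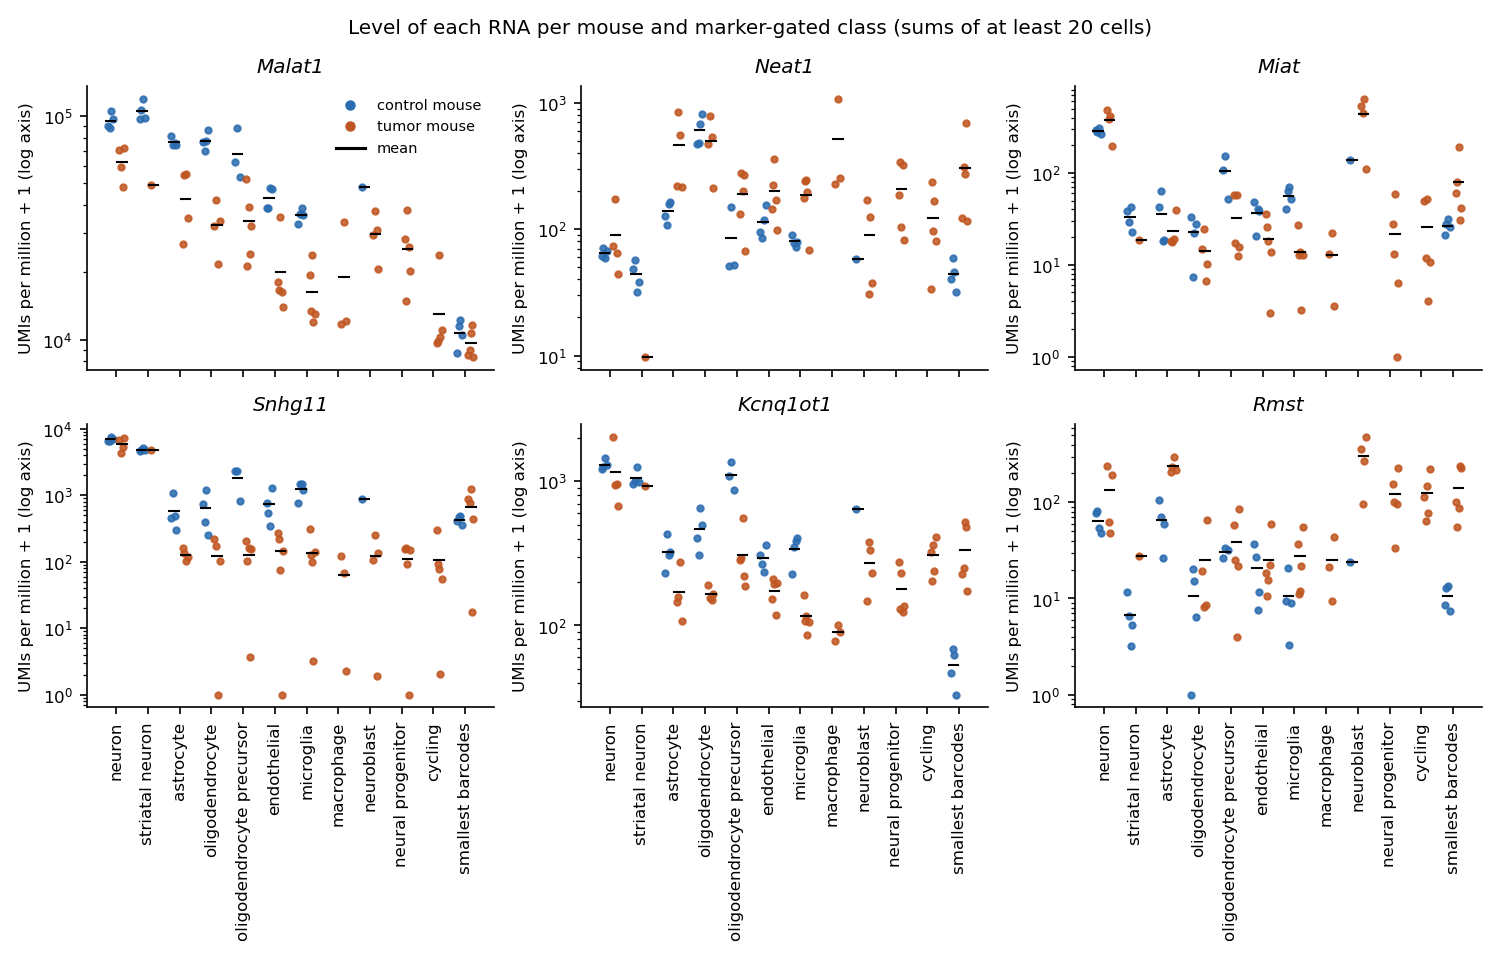
Level of each RNA (y axis, CPM + 1, log scale) in the gated classes and the smallest barcodes, with 1 point per mouse, control mice in blue, tumor mice in orange and a bar for the mean. Neurons lead for Snhg11 and Kcnq1ot1, oligodendrocytes for Neat1 in controls, and tumor neuroblasts carry Miat and Rmst.

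Tumors held classes that control brains had in too few cells to read. Neuroblast-gated cells (Dlx1, Dlx2, Dcx, Sox11 and others) had the highest mean Miat of the gated non-neuronal classes, at 537, 446, 638 and 108 CPM in tumors 2 to 5, and the single control mouse with enough of them had 138. Rmst in the same cells was 358, 94.6, 269 and 480. Snhg11 was low there, at 106, 251, 0.894 and 134, far from the 4348 to 7309 of the tumor neurons. Cycling cells had the lowest Malat1 among tumor classes with all 5 mice, at 9659, 9894, 10228 and 11011 CPM in tumors 1, 2, 4 and 5, with tumor 3 apart at 23987. Cells gated by Igf2, H19 and Dlk1 had 11832 to 17469 Malat1, 209 to 421 Neat1 and 78.1 to 219 Rmst. Neat1 reached 1075 in the macrophages of tumor 3, against 226 and 254 in those of tumors 2 and 4.

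Tumor 3 held cells with little or no Malat1 in several classes. In microglia, the lower quartile of the Malat1 share over its 286 cells was 0.0566%, and the median was 1.74%. The lower quartiles of the other tumors were 0.711% to 1.27% and those of the controls 2.05% to 2.29%. At an equal depth of 1000 UMIs per cell, 74.5% of tumor 3 microglia had at least 1 Malat1 UMI, against 97.25% to 98.1% in tumors 1, 2 and 4, 95.02% in tumor 5 and 100% in all 4 controls. In other classes of tumor 3 that share ran from 66.7% in cycling cells, 71.1% in neural progenitors and 79.5% in Igf2-gated cells to 88.4% in neurons, 89.1% in astrocytes, 97.4% in mural cells and 100% in striatal neurons. In the other tumors it was 83.3% to 95.8% in cycling cells, 90.2% to 96.8% in neural progenitors and 92.2% to 98.0% in Igf2-gated cells.

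Tumor and control were then compared over sums per mouse with the quasi-likelihood test of edgeR, adjusted over all genes tested in a comparison. The p-values measure the spread between mice, and in a sum fewer cells of a type and less RNA per cell cannot be told apart. Over all kept cells Malat1 was at 86053, 83553, 98909 and 92272 CPM in controls and 39863, 18376, 36632, 17471 and 17956 in tumors, without overlap. It fell by 1.61 on the log2 scale (SE 0.53, adjusted p = 0.023). Kcnq1ot1 fell by 1.40 (SE 0.31, adjusted p = 0.0040) and Miat by 1.53 (SE 0.43, adjusted p = 0.012). Neat1 rose by 2.16 (SE 0.37, adjusted p = 0.0012), from 66.9 to 74.9 CPM in controls to 169, 333, 339, 338 and 120 in tumors. Rmst rose by 1.53 (SE 0.39, adjusted p = 0.0075), from 44.8 to 75.1 to 171, 75.4, 90.4, 128 and 274, and the lowest tumor value was barely above the highest control one. Both RNAs were also higher in the smallest barcodes of tumors. There Neat1 was at 30.9 to 58.7 CPM in controls and 116 to 698 in tumors, and Rmst at 6.49 to 12.4 and 55.1 to 238. The part of free RNA in the 2 rises was not tested. Snhg11 was at 6064 to 6955 CPM in controls and 2613, 338, 681, 1.30 and 380 in tumors, but its difference of -2.93 (SE 1.17) had an adjusted p of 0.050460, just past the threshold of 0.05.

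Over all kept cells 5 of the 6 members were called, 2 upward and 3 downward, where 61.6% of all 17591 genes tested were called (32.2% upward, 29.4% downward), a count that says nothing about the list. The share of neuron markers moved with this comparison (0.461% to 0.539% in controls, 0.0284% to 0.184% in tumors), and its part in the differences was not tested. The Malat1 call was lost with fewer mice. Leaving out any 1 control gave adjusted p-values of 0.052 to 0.059, and leaving out tumor 5 gave 0.069, with differences of -1.74 to -1.51. For Snhg11 the call was gained without tumor 4 (-2.605, adjusted p = 0.0053) or without tumor 1 (-4.00, adjusted p = 0.015).

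Within microglia all 6 members were tested and called, where 46.4% of 9040 genes were (21.6% upward, 24.9% downward). Malat1 was at 32749, 36517, 38855 and 36017 CPM in control and 19353, 13414, 23944, 11970 and 13068 in tumor microglia, and it fell by 0.74 (SE 0.23, adjusted p = 0.019). Neat1 went the other way, from 89.6, 76.7, 71.9 and 77.9 to 174, 242, 242, 197 and 67.6, a rise of 1.67 (SE 0.35, adjusted p = 0.0021) in which tumor 5 lay below all controls. Kcnq1ot1 fell by 1.18 (SE 0.21, adjusted p = 0.00094), from 227 to 404 CPM to 84.9 to 163. Snhg11 fell by 2.88 (SE 0.73, adjusted p = 0.0064) and Miat by 1.83 (SE 0.41, adjusted p = 0.0034). Rmst rose by 1.69 (SE 0.62, adjusted p = 0.042), at levels of 2.32 to 19.5 CPM in controls and 10.2 to 55.0 in tumors, whose ranges overlap.

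Free RNA differed between the groups in the same cells. Neuron markers took 0.401% to 0.463% of UMIs in control microglia and 0.00669% to 0.105% in tumor microglia. If all of those came from free RNA with the profile of the smallest barcodes, 62.0% to 69.5% of the UMIs in control microglia and 8.36% to 32.1% in tumor microglia would be free RNA. With that profile taken off each sum, an alternative chosen after the data were seen, Malat1 stood at 7.07%, 8.30%, 7.60% and 7.57% in control microglia and 2.41%, 1.44%, 2.51%, 1.19% and 1.42% in tumor microglia. The fall of Malat1 was then 1.48 (SE 0.20, adjusted p = 0.00026), larger than as counted. The profile held a lower share of Malat1 than every one of these sums, and more of it was taken off in controls. The wider gap thus follows from the subtraction itself and is no further result. The same holds for Malat1 in the other classes treated this way. The rise of Neat1 was no longer called, at 0.88 (SE 0.43, adjusted p = 0.12), with 106 to 168 CPM in controls and 55.0 to 239 in tumors. Kcnq1ot1 (-2.91, adjusted p = 0.010), Miat (-5.12, adjusted p = 0.00099) and Snhg11 (-6.53, adjusted p = 0.0025) stayed lower, and Rmst was too low to be tested. Snhg11 still stood at 1336 to 3432 CPM in control microglia after the subtraction and at 0 to 60.6 in tumor microglia. Whether the remainder was made in microglia was not tested.

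**Figure D4:**
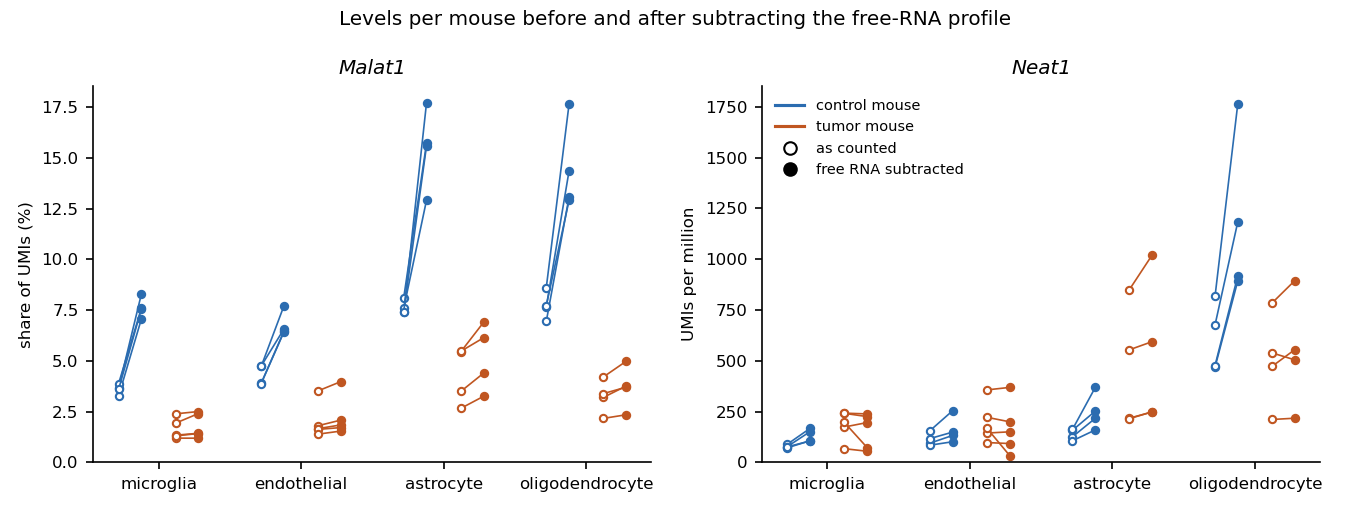
Malat1 (left, % of UMIs) and Neat1 (right, CPM) in 4 gated classes of each mouse, as counted (open points) and after the free-RNA profile was subtracted (filled points). After subtraction control and tumor values of Malat1 moved further apart in microglia (7.07% to 8.30% against 1.19% to 2.51%), while those of Neat1 overlapped. The wider Malat1 gap follows from the low Malat1 share of the profile and the larger part taken off in controls.

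In microglia the Malat1 call was also lost without control 2, 3 or 4 (adjusted p = 0.054 to 0.064), and the Rmst call without control 1, 3 or 4 or tumor 1 (adjusted p = 0.060 to 0.11). With no mitochondrial filter Miat (-0.98, adjusted p = 0.098) and Snhg11 (-1.95, adjusted p = 0.065) were not called. The mitochondrial share was 8.05% to 9.06% in control microglia and 2.01% to 8.56% in tumor microglia, and its part was not tested.

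Astrocytes of 4 tumor mice (all but tumor 4) were compared with those of 4 controls, where 30.6% of 3672 genes were called (15.2% upward, 15.4% downward). Rmst rose by 2.17 (SE 0.32, adjusted p = 3.7e-05), from 105, 68.9, 25.6 and 58.0 CPM to 206, 234, 298 and 215, without overlap. Neat1 rose by 1.74 (SE 0.39, adjusted p = 0.0019), from 126, 106, 158 and 162 to 218, 851, 554 and 215. Snhg11 fell by 2.16 (SE 0.34, adjusted p = 7.7e-05) and Kcnq1ot1 by 0.91 (SE 0.29, adjusted p = 0.020). Malat1 was at 74027 to 81151 in controls and 26617, 54477, 54727 and 34957 in tumors, but the test did not call it (-0.77, SE 0.42, adjusted p = 0.18). Miat was under the filter on low counts. Of 5 members tested, 4 were called. With the free-RNA profile subtracted, Rmst kept its rise (1.31, adjusted p = 0.044), Malat1 was called (-1.45, adjusted p = 0.015) and Neat1 was not (1.17, adjusted p = 0.10). Neuron markers took 0.314% to 0.470% of UMIs in control astrocytes and 0.0274% to 0.0834% in those of tumors. The Kcnq1ot1 call was lost without control 2 or 4 or tumor 1 or 5 (adjusted p = 0.056 to 0.11), and with no mitochondrial filter the difference was 0.052 in the other direction (adjusted p = 0.87). The mitochondrial share was 9.68% to 14.0% in control and 3.42% to 11.2% in tumor astrocytes, and its part was not tested.

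In endothelial cells 27% of 7263 genes were called (13.9% upward, 13.1% downward), and 1 of the 5 members tested. Malat1 was at 38930, 38865, 47473 and 47261 CPM in controls and 18107, 16655, 35275, 16276 and 13939 in tumors, and it fell by 0.98 (SE 0.34, adjusted p = 0.047). The call was lost without any 1 control (adjusted p = 0.098 to 0.15) and without tumor 1, 2, 4 or 5 (0.059 to 0.076), and it held without tumor 3. Neat1 (0.92, adjusted p = 0.078), Kcnq1ot1 (-0.61, adjusted p = 0.076), Snhg11 (-2.21, adjusted p = 0.056) and Miat (-0.86, adjusted p = 0.35) did not pass, and Rmst was not tested. Neuron markers took 0.234% to 0.362% of UMIs in control and 0.00685% to 0.0755% in tumor endothelial cells. The mitochondrial share was 10.9% to 12.2% in the controls and 1.53% to 8.18% in the tumors, without overlap, and its part was not tested. With the free-RNA profile subtracted Malat1 fell by 1.48 (adjusted p = 0.013), Snhg11 (-4.28, adjusted p = 0.013) and Kcnq1ot1 (-1.68, adjusted p = 0.028) were called, and Neat1 was not (0.17, adjusted p = 0.85).

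In oligodendrocytes, compared over 4 mice of each group without tumor 3, 24.3% of 3123 genes were called (11.6% upward, 12.7% downward). Malat1 fell by 1.18 (SE 0.33, adjusted p = 0.027), from 76616, 69485, 77282 and 86150 CPM to 32028, 42088, 21691 and 33905, without overlap. Kcnq1ot1 fell by 1.43 (SE 0.27, adjusted p = 0.0069), from 309 to 648 to 149 to 189. Neat1, at its highest control level in this class, had tumor values of 473, 785, 539 and 211 against 469 to 817, a difference of -0.18 (SE 0.39, adjusted p = 0.75) whose sign depended on the settings. Snhg11 (-2.31, adjusted p = 0.12) was not called, so 2 of 4 members tested passed. Leaving out any 1 control lost the Malat1 call (adjusted p = 0.062 to 0.069), as did leaving out tumor 5 (0.060). With the replicate number as a block in the model, 0 of 5145 genes were called, so the calls of Malat1 and Kcnq1ot1 were both lost. That model took only replicate numbers present in both groups, so control 3 and tumor 5 were left out as well. The parts of the block and of the fewer mice in this loss cannot be told apart. Neuron markers took 0.307% to 0.397% of UMIs in control and 0.00553% to 0.0657% in tumor oligodendrocytes, and mitochondrial RNA 8.19% to 9.22% and 2.04% to 8.77%. With the free-RNA profile subtracted Malat1 fell by 1.86 (adjusted p = 0.0085) and Kcnq1ot1 by 2.56 (adjusted p = 0.010), and Neat1 was not called (-1.01, adjusted p = 0.11).

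Neurons were the class in which none of the 6 members was called, where 16% of 15002 genes were (7.89% upward, 8.16% downward). The subtype gates divided the class differently in the groups. These gates compare marker UMIs with the free RNA of the same library. Neuron markers took 0.647% to 0.716% of that RNA in controls and 0.117% to 0.326% in tumors 1, 2, 3 and 5. Whether the cells themselves differed in kind thus cannot be told from these counts. Neurons of no subtype were 5088, 4200, 3284 and 4254 of the 5291, 4495, 3539 and 4555 control neurons, whereas tumor 3 had 30 striatal, 57 glutamatergic and 29 GABAergic cells of 189 and tumor 2 had 39 glutamatergic cells of 188. Malat1 ran from 35676 to 74706 CPM across the subtypes and mice of the tumors, and the part of the subtypes in the differences was not tested. Malat1 was at 90133, 87982, 104864 and 96513 CPM in control and 70381, 58851, 47918 and 72218 in tumor neurons, without overlap, but with a difference of -0.74 (SE 0.26) its adjusted p in edgeR was 0.074. DESeq2 called it (-0.73, adjusted p = 8.6e-05), as did edgeR without tumor 5, which had 44 neurons (-0.79, adjusted p = 0.045), or with mitochondrial genes left out of the counts (-0.74, adjusted p = 0.025). The unadjusted p of Malat1 was 0.014 and that of Rmst 0.030, and the other 4 members were above 0.1. Rmst differed by 0.94 (SE 0.39, adjusted p = 0.12), at 237, 60.9, 47.2 and 193 in tumors. Snhg11 (-0.38, SE 0.23) was at 6779, 4348, 5381 and 7309 in tumor neurons, and 2 of those values lay within the control range. Kcnq1ot1 (-0.28, SE 0.31) ran from 674 to 2034 in tumor neurons, a wider range than the 1218 to 1459 of controls. Miat differed by 0.31 (SE 0.25) and Neat1 by 0.51 (SE 0.30).

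**Figure D5:**
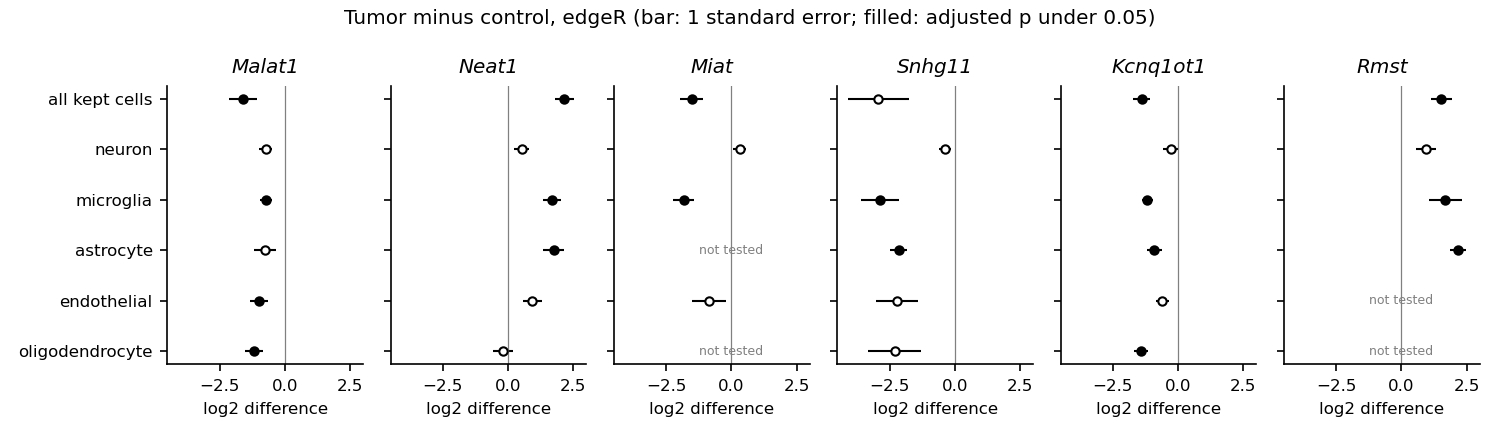
Log2 difference of tumor minus control (x axis) for each RNA in all kept cells and 5 gated classes (y axis), with 1 standard error as the bar and filled points for an adjusted p under 0.05 in edgeR. Malat1 lies left of 0 in every class, Neat1 right of 0 except in oligodendrocytes, and in neurons no point is filled.

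Whether the tumor difference itself differed between neurons and microglia was tested with limma on the difference of log2(CPM + 10) between the classes of the same mouse, over 4 mice of each group. There 34.5% of 11486 genes passed. Snhg11 differed by 2.66 (SE 0.50, adjusted p = 0.0017), Miat by 1.67 (SE 0.38, adjusted p = 0.0051) and Kcnq1ot1 by 1.10 (SE 0.33, adjusted p = 0.021), each being more negative in microglia than in neurons. Malat1 (0.47, SE 0.31, adjusted p = 0.27), Neat1 (-0.71, SE 0.28, adjusted p = 0.067) and Rmst (-0.12, SE 0.31, adjusted p = 0.79) did not pass. The Kcnq1ot1 call was lost without control 2, 3 or 4 (adjusted p = 0.063 to 0.087). Without tumor 3 that of Malat1 was gained (0.76, adjusted p = 0.027). Without the filter on low values, which took the genes tested to 25745, none of the 3 calls was kept (adjusted p = 0.065 to 0.59). Neuron markers in microglia differed between the groups, as given above, and their part in these differences was not tested.

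Partners and neighbours of the 6 RNAs were counted from lists written from general knowledge. The counts are to be read against the share of all genes called, 32.2% upward and 29.4% downward over all kept cells. There paraspeckle proteins, the partners of Neat1, moved in both directions. Of 10 tested, 3 rose and 4 fell, with Hnrnpk up by 1.26 and Nudt21 by 1.72 and Pspc1 (-0.76) and Sfpq (-0.85) down, and the median was -0.35 against 0.04 over all genes. Speckle and splicing factors, the neighbours of Malat1 in the nucleus, had 3 up and 3 down of 14, with Srsf3 (1.78) and Srsf2 (1.03) up and Clk4 (-1.27) and Srrm2 (-1.21) down. All 6 tested genes of the Kcnq1 domain rose, among them Kcnq1 (2.82) and Cd81 (2.24), a tetraspanin of glia and immune cells, with a list median of 2.42. The coding genes around Malat1 and Neat1 had 3 up and 0 down of 5, among them Frmd8 (1.28) and Slc25a45 (2.68). Of 10 other long non-coding RNAs of brain 6 fell and 0 rose, including Peg13 (-1.28) and Oip5os1 (-0.76). Snhg14 (-2.16) was the 1 snoRNA host of 14 that fell, while 6 rose, with Snhg6 (1.84) and Snhg1 (1.78). Of 5 proteins known to bind Miat or Rmst, Sox2 (2.88), a factor of neural progenitors, and Qk (0.79) rose and Celf3 (-1.89), a neuronal splicing factor, fell.

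Within microglia 21.6% of all genes were called upward and 24.9% downward. None of 10 paraspeckle proteins rose and 2 fell (Matr3 by 0.86, Sfpq by 0.57), and the speckle list had 2 up (Srsf2 by 0.60, Srsf6 by 0.57) and 1 down (Srrm2 by 0.59) of 14. Of 9 other long non-coding RNAs 8 fell and 0 rose, with a list median of -1.75 against 0.00 over all genes. Meg3 (-3.21) and Oip5os1 (-1.20) had the smallest p of those that fell. Snhg14 fell by 2.55, and 7 of 10 snoRNA hosts rose, among them Snhg1 (1.65) and Snhg6 (1.44). In the Kcnq1 domain 3 of 4 rose, with Cd81 up by 1.62 and Cdkn1c, a cyclin-dependent kinase inhibitor, by 3.28. Celf3 fell by 2.73 as the 1 call among the 5 Miat and Rmst binders, and none of 3 coding neighbours was called. Meg3, Snhg14 and Celf3 are neuronal RNAs, and neuron markers were higher in control microglia, as given above. Their differences with the free-RNA profile subtracted are not reported here. Beyond that alternative, the part of free RNA in the falls of these 3 genes was not tested.

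In neurons, where 7.89% of all genes were called upward and 8.16% downward, Srrm2 fell by 0.81 and Clk4 by 0.77, within 3 down and 0 up of 14 speckle genes, and Pspc1 fell by 0.69 as the 1 call of 10 paraspeckle proteins. Tssc4 (0.57) and Cdkn1c (2.98) rose in the Kcnq1 domain, 2 of 4. Cdkn1c was at 4.913 to 6.702 CPM in control neurons and at 4.509, 44.65, 28.32 and 465.7 in those of tumors 1, 2, 3 and 5. Tumor 1, with 602 neurons, thus lay below all controls, and the value of tumor 5 rests on 65 UMIs in 44 neurons. With 1 mouse left out the difference was 1.7178 to 3.7464. Over all kept cells of tumor 5 Cdkn1c was at 1354 CPM, and the part of free RNA in its rise in neurons was not tested. Sox2ot fell by 0.86 as the 1 of 10 other long non-coding RNAs, Sox2 rose by 1.09 and Hnrnpa2b1 fell by 0.87 among 5 binders, Ltbp3 (0.81) rose among 3 neighbours, and Snhg20 (0.67) among 14 snoRNA hosts. In astrocytes (15.2% of all genes upward, 15.4% downward) Cd81 rose by 1.60, Srsf3 by 0.79 and Snhg20 by 1.43, while Snhg14 fell by 1.90, Oip5os1 by 1.41 and Meg3 by 0.86. None of 8 paraspeckle proteins and none of 4 binders was called there.

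In endothelial cells (13.9% of all genes upward, 13.1% downward) Hnrnpk rose by 0.66 and Matr3 fell by 0.64 among 9 paraspeckle proteins, Srsf2 (0.72) and Srsf3 (0.95) rose and Srrm2 fell by 0.68 among 14 speckle genes, and Meg3 (-2.45) and Tug1 (-1.05) fell among 7 other long non-coding RNAs. Cd81 rose by 0.80 as the 1 of 4 genes of the Kcnq1 domain, Snhg1 rose by 1.19 and Snhg14 fell by 2.36 among 10 snoRNA hosts, Hnrnpa2b1 fell by 0.63 among 4 binders, and neither of 2 neighbours was called. In oligodendrocytes (11.6% of all genes upward, 12.7% downward) Sfpq fell by 0.78 as the 1 of 7 paraspeckle proteins, Clk1 by 1.18 and Clk4 by 0.87 as the 2 of 14 speckle genes, and Meg3 (-3.09) and Sox2ot (-1.38) were among 4 of 5 other long non-coding RNAs that fell. Cd81 rose by 1.29 as the 1 of 2 genes of the Kcnq1 domain, Snhg14 fell by 2.05 as the 1 of 4 snoRNA hosts, and none of 4 binders and not the 1 neighbour tested was called.

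The genes whose level followed each RNA most closely were ranked by Pearson's r of log2(CPM + 10) over 84 sums of 1 mouse and 1 gated class, among 3719 genes. The sums share libraries and free RNA, so r is a description. Malat1 was most like Pnisr (0.845), Nisch, Ddx17, Tcf25 and Prpf4b (0.825). Kcnq1ot1 was most like Tnrc6c (0.855), R3hdm1, Ttc14, Zfp445 and Srrm2 (0.846). Snhg11 had the closest companions, Grin1 (0.931), which encodes a subunit of the NMDA receptor, Snhg14 (0.928), the synaptic vesicle gene Syt1 (0.925), Trank1 and Meg3 (0.919). Miat was most like Eml5 (0.841), Mir124a-1hg (0.84), the host of a neuronal microRNA, Lrrc7, Celf2 and Nrxn3 (0.789). Neat1 had the loosest, with Gna12 at 0.696, then Lamp1, Reep3, Tmed10 and Tmbim6 (0.625). Rmst was most like Celsr2 (0.747), Ptprs, Ezr, Nnat and Cbs (0.708).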

How the data were processed

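The authors deposited raw UMI counts per gene and barcode for each of 9 mice, made with Cell Ranger (6.1.2 in the file headers, 7 in the submitters' processing notes) on mm10. Whether introns or strand were counted is not given in the sources used here. The submitters also named Scanpy 1.8.2.

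The 10000 deepest barcodes of a library were taken and those with 200 to 6000 genes kept. A 2-component Gaussian mixture was fitted per library on mitochondrial share and number of genes, and the component with more mitochondrial RNA was removed. The cut thus differed between libraries. Removed barcodes averaged 3.67% and 4.84% mitochondrial RNA in tumors 4 and 5, below the 7.60% to 8.72% of barcodes kept in controls. The highest Scrublet scores (0.8% per 1000 cells, Scanpy 1.11.5) were taken out as doublets, which removed 1.31% to 5.29%. Control 4 lists 80865 of its 80887 barcodes and 32287 of 32289 features, so barcodes shared with it were not counted. Cell classes were gated on marker genes with rules set after the data were seen. Classes other than neurons needed at least 3 markers, and 3 times the UMIs that free RNA would give plus 1. Neurons needed at least 4 neuron markers, at least 0.2% of UMIs from them and no other class, without a comparison with free RNA. Neuron markers took 0.647% to 0.716% of UMIs in the smallest control barcodes, so free RNA alone can meet the neuron gate in controls. Not every marker of the striatal gate is reported here. Free RNA was estimated from the 3000 smallest barcodes. No barcode in the deposited matrices had fewer than 468 UMIs. The median over the 3000 was 691 to 1338 UMIs in controls and 559 to 649 in tumors. In tumor 3 they were taken from 9001 barcodes.

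Counts were summed per mouse and class (at least 20 cells) and tumor compared with control in edgeR 4.0.16 (quasi-likelihood, TMM, filterByExpr, Benjamini-Hochberg at 0.05 over all genes tested). The difference between neurons and microglia was tested in limma 3.58.1. DESeq2 1.42.0, other filters, gates, a replicate block and leaving out mice were alternatives. The block kept only mice whose replicate number was present in both groups of the comparison. On simulated counts with 200 genes changed by 1.5 (log2), edgeR found 32% over all kept cells, 77% in microglia, 80% in astrocytes, 45% in endothelial cells, 55.5% in oligodendrocytes and 83.5% in neurons. The simulation gave every gene of a comparison the same dispersion and changed far fewer genes than were called in the data. These shares thus do not give the chance of finding a change in the data.

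Members and gene lists were chosen with earlier results of these data known, so a count of called members is given beside the share of all genes called and supports nothing about the list. Named in the text were the 6 RNAs, for each list, in each comparison, up to 2 risers and 2 fallers ranked by p, and the 5 genes most alike among those with a mean of at least 50 CPM. Intervals were not drawn on shares, since mice and not reads are the replicates.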

Additional observations from a re-analysis of the deposited data

Results flagged for a closer look

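Of 96 groups of 4 or 5 mice examined, 6 had 1 mouse far from the rest by Dixon's 95% limit, and chance flags about 1 in 20 groups. Over all kept tumor cells, tumor 1 stood above the other 4 for Snhg11 (2613 CPM, the others 1.30 to 681) and for Kcnq1ot1 (861, the others 221 to 374), and tumor 1 also had the highest neuron-marker share of the tumors, 0.184%. Tumor 3 stood above the others for Malat1 in endothelial cells (35275 CPM, the others 13939 to 18107). Tumor 5 stood apart for Rmst in endothelial cells (58.4 CPM, the others 9.60 to 21.2) and for Miat in astrocytes (38.6, the others 16.7 to 17.9). Control 3 stood apart for Kcnq1ot1 in striatal neurons (1251 CPM, the others 963 to 1004).

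The tumor difference was unlike in neurons and microglia for Snhg11 (2.66 on the log2 scale, neuron minus microglia), Miat (1.67) and Kcnq1ot1 (1.10), as tested with limma.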

How the results depend on the processing

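Of 620 values of the 6 RNAs under the alternatives, 519 kept their direction and their side of the threshold and 9 reversed, and of 1164 values of list genes 989 did and 0 reversed. The largest reversed value was 0.45, and the others were at most 0.17 in size. Kcnq1ot1 in astrocytes was 0.052 with no mitochondrial filter. Neat1 in oligodendrocytes was 0.10 with no filter on low counts, 0.17 with the replicate block, 0.45 with gate factor 4 and -0.44 to 0.12 with 1 mouse left out (0.12 without tumor 5). Neat1 in neurons was -0.010 with a mitochondrial limit of 10% and -0.069 (without tumor 2) to 0.72 with 1 mouse left out. The neuron minus microglia difference of Rmst was 0.0075 without control 3, 0.0019 without tumor 3 and -0.32 at the lowest with 1 mouse left out. The cause of these was not tested.

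Genes called in astrocytes (1123) came to 1983 with no filter on low counts, 727 with the replicate block, 2926 with no mitochondrial filter, 2421 with gate factor 2 and 574 with free RNA subtracted. Those in endothelial cells (1959) came to 1194 with free RNA subtracted and to 1176 to 1841 with 1 mouse left out, lowest without control 4. Those in oligodendrocytes (759) came to 1893 with no filter, 1227 with no mitochondrial filter, 1999 with gate factor 2, 299 with gate factor 4, 464 with free RNA subtracted and 325 to 1223 with 1 mouse left out, where controls 2, 3 and 4 and tumor 4 moved it most. With the replicate block edgeR called 0 in oligodendrocytes, with 1234 at an unadjusted p under 0.05, and DESeq2 without the block called 723. Those in neurons (2407) came to 805 with the block and to 1174 to 2633 with 1 mouse left out (1254, 1191, 1343 and 1174 without controls 1 to 4). With 1 mouse left out the counts were 9097 to 11975 over all kept cells, 3742 to 4720 in microglia, 928 to 1330 in astrocytes and 2879 to 4315 for the interaction. The upward share of calls in oligodendrocytes was 47.8%, 60.8% with no filter, 59.5% with free RNA subtracted and 31.1% to 36.7% without 1 control. In astrocytes it was 49.6% and 67.6% with free RNA subtracted, and in neurons 49.1% and 37.9% with the block. Free RNA subtraction moved the median log2 difference of all genes from 0.04 to 0.29 in astrocytes and from 0.08 to 0.31 in oligodendrocytes.

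The mean Malat1 share of UMIs in neuron-gated control cells (9.49%) was 6.68% with no mitochondrial filter, 10.4% with the limit of 10%, 10.3% without mitochondrial genes and 9.15% to 9.72% with 1 mouse left out. That of the smallest barcodes (1.07%) was 1.27% over 1000 barcodes and 1.24% without mitochondrial genes.

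Replicate numbers did not pair the mice: deviations of same-numbered mice correlated at 0.116, 0.0605, -0.00272 and 0.0849 over 3943 genes, and only control 1 correlated best with its own number. A minimum of 50 cells for astrocytes, endothelial cells and oligodendrocytes, the 10% limit for astrocytes and endothelial cells and gate factor 4 for astrocytes left too few mice. Tumor mice held 3 to 602 neurons, tumor 4 with 3 being left out, which limits the neuron comparison. Median UMIs per kept cell were 2036 to 4117 in controls and 2076 to 6532 in tumors.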
